A study of Mus musculus with 32 samples.

Results

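Tumours grown from KPC36 cells were ranked by the messenger RNA of 5 T-cell genes, and the 16 T-cell-rich tumours were compared with the 16 T-cell-poor tumours. Each tumour's T-cell score was the mean of log2(CPM + 1) over Cd3e, Cd3d, Cd3g, Cd2 and Lck, where CPM is the estimated count scaled to the library's total. Tumours were chosen by these measured values: within each of 4 treatment groups of 8 tumours, the 4 with the highest scores were called rich and the other 4 poor, so all 32 tumours of the series entered the comparison. Rich and poor are therefore names for a measured score. They were not treatments, and the adjusted p-values below describe how other genes went with that score.

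KPC36 is a mouse pancreatic tumour line, and bulk RNA sequencing was done on pieces of its tumours. The groups were the carbon-ion controls (carbon_ctrl), the carbon-irradiated tumours (carbon_treated), the photon controls (photon_ctrl) and the photon-irradiated tumours (photon_treated). Control tumours received no beam. All tumours came from the same cell line; dose, host strain and age are not given in the sources used here. Tumours were collected on days 4 and 7, and the day of each library is not given in the labels. The labels do not say whether libraries of a group came from separate animals, so p-values measure only the spread between these samples. In bulk tissue, more T cells and more RNA per T cell cannot be told apart.

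T cells recognise peptides held on major histocompatibility complex (MHC) molecules through a receptor whose signal is carried by the CD3 chains and started by the kinase Lck. Activated T cells and natural killer (NK) cells release interferon-gamma, which raises MHC class I, the immunoproteasome and chemokines in tumour cells and macrophages. Pancreatic ductal adenocarcinoma is known for a dense stroma with many macrophages and few T cells.

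The score was built from low counts. Summed over the 5 genes, T-cell-rich tumours had 62 to 368 counts (median 151) and T-cell-poor tumours 21 to 201 (median 66.5). Summed CPM of these genes was 4.36 ± 1.86 (SD, n = 16) in rich tumours and 2.18 ± 0.942 in poor tumours. The scores of rich tumours ran from 0.427 to 1.34 and those of poor tumours from 0.25 to 0.798. These values chose the tumours and are given with no test.

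The position of a tumour was relative to its own group. Photon controls had the highest median score (0.883), with 0.968 to 1.34 in the rich and 0.590 to 0.798 in the poor tumours. Photon-irradiated tumours had the lowest median (0.424), with 0.427 to 0.703 in the rich and 0.266 to 0.421 in the poor. Rich photon-irradiated tumours thus overlapped poor photon controls, and their median of 0.542 was below the lowest poor photon control. The carbon-ion controls ran from 0.587 to 1.10 in rich and 0.25 to 0.498 in poor tumours, and the carbon-irradiated tumours from 0.715 to 0.962 and 0.262 to 0.693.

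**Figure D1:**
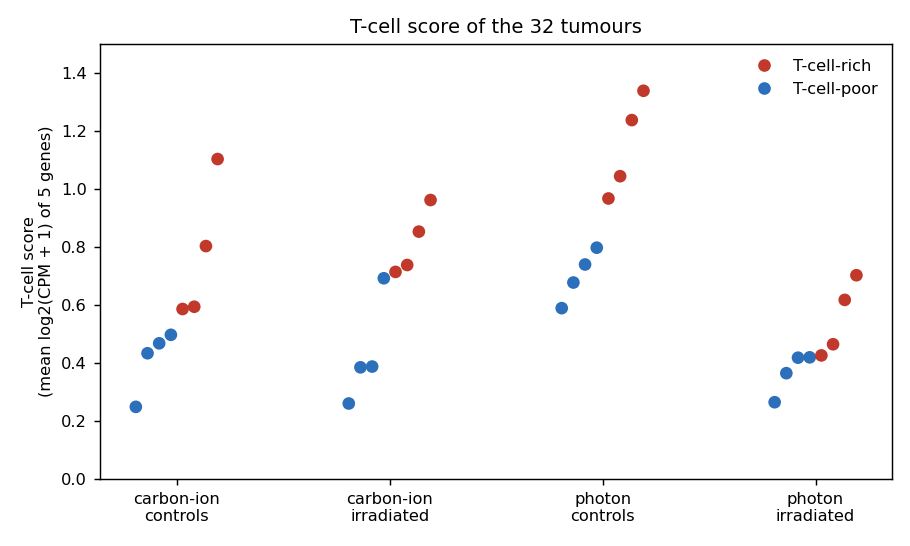
T-cell score (vertical axis, mean log2(CPM + 1) of 5 genes) of each of the 32 tumours, sorted within its treatment group; red points are T-cell-rich and blue points T-cell-poor tumours. Each group was split at its own middle, and the rich photon-irradiated tumours (0.427 to 0.703) lie no higher than the top of the poor photon controls (0.798).

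At the boundary the tumours were close. The last rich and the first poor score were 0.587 and 0.498 in carbon-ion controls, 0.715 and 0.693 in carbon-irradiated tumours, 0.968 and 0.798 in photon controls, and 0.427 and 0.421 in photon-irradiated tumours. In the photon-irradiated group the boundary tumours had 1.83 summed CPM (95% Poisson interval 1.41 to 2.36, counting error only) and 1.85 (1.47 to 2.30), so their order was not detectable at this depth. In the carbon-irradiated group they had 3.45 (2.75 to 4.32) and 3.33 (2.81 to 3.94), which also overlap. Leaving out any single score gene, or keeping Cd3e, Cd3d and Cd3g alone, exchanged between 1 and 3 pairs of tumours, and photon-irradiated tumours were among those exchanged in each case.

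Totals were 34522400 estimated counts (SD 7138900, n = 16) in rich and 35338700 (SD 14485800, n = 16) in poor libraries, with a range of 13891900 to 71645900 over all 32. None of 5 measures (library total, genes detected, share of counts in the top 50 genes, mitochondrial share, number in the title) passed a permutation test, with p-values adjusted over the 5 between 0.698 and 0.853 (two-sided, 100000 draws within groups). Titles starting with D, a letter whose meaning is not stated, occurred in 4 rich and 3 poor libraries, all of the carbon-ion arm. Krt19, a duct keratin, had a median of 494 CPM in rich and 556 in poor tumours, and the duct marker was thus abundant in both sets.

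T-cell-rich tumours carried more RNA of some MHC class I, interferon-stimulated and macrophage genes than T-cell-poor tumours of the same treatment group. Called higher were 6 of 10 MHC class I, 6 of 19 type I interferon, 5 of 20 interferon-gamma and 7 of 16 macrophage and monocyte genes. Of 10 adipocyte genes 5 were also higher, and with their level as a covariate 92 of the genes tested passed in place of 393, among them 1 in place of 6 type I interferon genes. All 393 kept their sign in that fit, and its list medians are given further on. What part fat tissue had in these differences was not tested. Most T-cell receptor genes outside the score had positive differences that did not pass the test, and the perforin and granzyme genes did not pass at the reported settings. Genes that were lower in rich tumours all changed by less than 2-fold. Of 20469 genes tested, 328 were higher in rich tumours (1.6% of genes tested) and 65 lower (0.318%) at an adjusted p under 0.05, by edgeR's quasi-likelihood test with treatment group as block and Benjamini-Hochberg adjustment. In both directions together that was 393 genes, or 1.92%. The median log2 fold change (rich less poor) was 0.55 among the genes called higher and -0.26 among those called lower, against -0.01 over all genes tested, of which 47.7% were above 0. A change of over 2-fold was seen in 44 of the higher genes and 0 of the lower ones. The direction was the same in all 4 treatment groups for 312 of the 328 higher and 57 of the 65 lower genes, which choosing genes for an overall difference favours.

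These counts depended on which tumours stood at the boundary. Without Cd3g in the score, which exchanged 1 pair of photon-irradiated tumours, 2 genes passed by the same test (Ear2 and F7, named because so few passed). Without Cd2, which exchanged 2 pairs, 0 passed, with 1859 genes at an unadjusted p under 0.05 against 2751 in the reported comparison. With the score from Cd3e, Cd3d and Cd3g alone, 771 passed. Without Cd2, 1 of the 393 genes changed sign (Ltbp2), and 337 kept their sign and had an unadjusted p under 0.05; most tumours stayed in the same set, so kept signs are no sign of stability. Leaving out 1 library at a time gave 202 (without carbon-irradiated library 8) to 558 calls (without carbon-irradiated library 3 or 5), and 190 of the 393 genes passed in each of those 32 fits. Counts lower by more than 1.5 times were also 234 without photon-irradiated library 1, 243 without photon control 3, 244 without photon control 6, 246 without photon-irradiated library 4, 249 without carbon-irradiated library 7 and 249 without photon control 2.

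**Figure D2:**
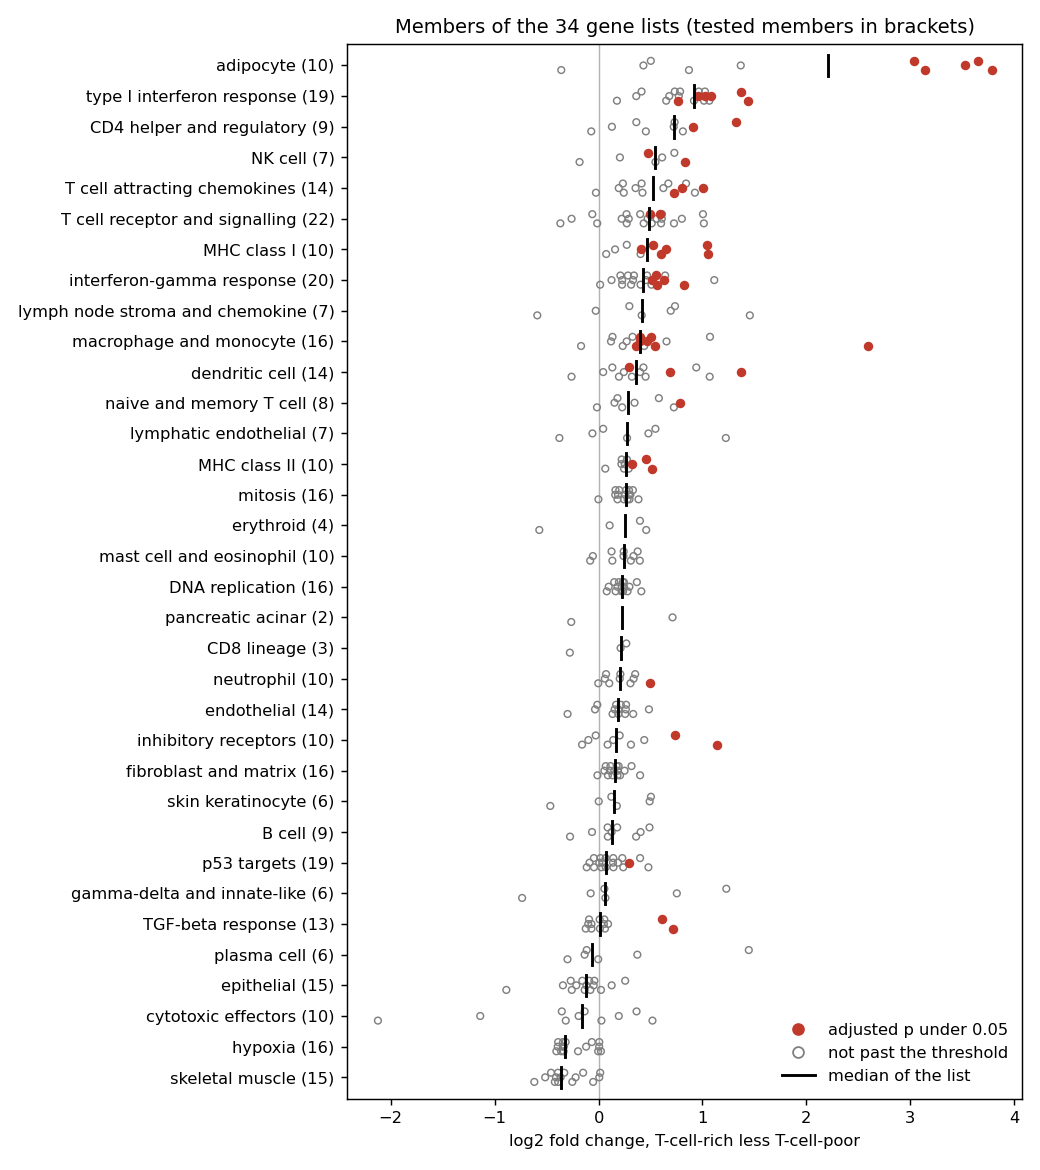
Log2 fold change (horizontal axis, T-cell-rich less T-cell-poor) of each tested gene in 34 lists of cell-type and pathway genes, sorted by the list's median (black bar); filled points passed an adjusted p under 0.05. No list has a filled point left of 0, and the adipocyte, type I interferon, MHC class I and macrophage lists hold 5, 6, 6 and 7 filled points.

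The smallest adjusted p-value belonged to Irf5, and several genes common to leukocytes followed it. Irf5, a transcription factor of myeloid inflammatory responses at chr6:29526625-29541871 on the plus strand (GRCm38), ran from 18.1 through a median of 25.2 to 36.7 CPM in rich tumours and from 10.1 through 17.1 to 24.3 in poor tumours. All 16 rich tumours were above the median of the poor ones, though the ranges overlapped. Its log2 fold change was 0.58 (SE 0.08, edgeR adjusted p = 0.0017). Spi1, which encodes the myeloid and B-cell factor PU.1, rose by 0.56 (SE 0.10, adjusted p = 0.0029). Coro1a, an actin regulator of leukocytes, rose by 0.53 (SE 0.08, adjusted p = 0.0029), and Itgb2, the beta chain shared by leukocyte integrins, by 0.61 (SE 0.10, adjusted p = 0.0029). These 4 genes were singled out after their values were seen, and the adjusted p-values of Irf5, Coro1a and Spi1 stayed under 0.05 in every fit that left out 1 library.

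MHC class I genes made up the list with the largest share of members called. Of 10 tested, 6 were called higher against 1.6% over all genes tested (B2m, H2-D1, H2-K1, H2-M3, H2-Q7 and Nlrc5), all 10 were above 0 in log2 fold change, and the median was 0.46 against -0.01 over all genes. H2-K1, a classical heavy chain at chr17:33996017-34000347 on the minus strand, ran from 82 through 116 to 199 CPM in rich and from 51.2 through 75.7 to 134 in poor tumours. All 16 rich tumours exceeded the poor median, but poor carbon-irradiated library 4 was among the highest values. Its log2 fold change was 0.60 (SE 0.10, edgeR adjusted p = 0.0029). H2-D1, the other classical heavy chain measured, had 136, 190 and 340 CPM as lowest, median and highest value in rich and 76.8, 116 and 201 in poor tumours. It rose by 0.65 (SE 0.11, adjusted p = 0.0029).

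Nlrc5, the activator of MHC class I transcription, rose by 1.06 (SE 0.23, edgeR adjusted p = 0.012), from a median of 5.64 CPM in poor to 11.2 in rich tumours. The non-classical gene H2-Q7 rose by 1.05 (SE 0.22, adjusted p = 0.00902), and its neighbour H2-Q6 by 1.14 (SE 0.25, adjusted p = 0.012). The MHC class I genes share long stretches of sequence, so the estimated counts of H2-Q6, H2-Q7, H2-K1 and H2-D1 are uncertain as to how reads were divided among them. Carbon-irradiated library 8 stood apart on the MHC class I list, with 1350 summed CPM against 794 to 1020 in the other 7 of its group. H2-K1, H2-D1, Nlrc5, H2-Q6 and H2-Q7 passed in all 32 fits that left out 1 library. Of these, H2-K1 and H2-D1 also passed with the adipocyte level as a covariate and without the 4 rich libraries that stood apart on any list, where the H2-K1 log2 fold change had an edgeR adjusted p of 0.024 and 0.0356. Nlrc5, H2-Q6 and H2-Q7 passed in neither, though each kept its sign. A lost call does not show how far a fold change moved, and list medians in both fits are given further on. Those 4 libraries were dropped for high list values while no poor library was dropped. That choice favours fewer calls wherever this fit is used below.

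Among targets of interferon-gamma, all 20 members were above 0 in log2 fold change, with a median of 0.43, and 5 were called higher (1.6% over all genes tested), among them Tap1, Psmb8, Psmb9 and Gbp5. Tap1, which carries peptides to MHC class I, ran from 9.11 through 14.9 to 37.1 CPM in rich and from 5.78 through 8.54 to 16.7 in poor tumours, with a log2 fold change of 0.83 (SE 0.14, edgeR adjusted p = 0.00336). One carbon-irradiated tumour held the highest value, and the lowest were in poor photon-irradiated tumours. Psmb8, a subunit of the immunoproteasome, rose by 0.63 (SE 0.13, adjusted p = 0.00948). Gbp5, a guanylate-binding protein of cell-autonomous defence, rose by 0.55 (SE 0.14, adjusted p = 0.0288). Without carbon-irradiated library 8, 2 members of the list passed, and Gbp5 had an adjusted p of 0.0587. Ifng itself was too low to test, with 4 counts summed over the 16 rich and 10 over the 16 poor libraries.

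The type I interferon list had a larger median than the interferon-gamma list. All 19 tested were above 0 in log2 fold change, with a median of 0.92, and 6 were called higher (1.6% over all genes tested): Irf7, Oas1a, Oas2, Oas3, Oasl2 and Zbp1. The Oas genes encode sensors of double-stranded RNA and lie close together, with Oas2 at chr5:120730333-120749853, Oas3 at chr5:120753098-120777661 and Oas1a at chr5:120896256-120907521, all on the minus strand. Oas2 ran from 2.25 through 5.49 to 28.9 CPM in rich and from 0.823 through 2.90 to 9.06 in poor tumours, and 15 of 16 rich tumours were above the poor median. Its log2 fold change was 1.37 (SE 0.29, edgeR adjusted p = 0.0108). Oas3 ran from 0.776 through 4.44 to 26.4 CPM in rich and from 0.673 through 1.38 to 8.62 in poor tumours. The ranges overlapped at the low end, and the log2 fold change was 1.44 (SE 0.33, adjusted p = 0.0158). Oas1a rose by 0.96 (SE 0.21, adjusted p = 0.0128). The mouse Oas1 genes are near-copies of each other, so the reads of Oas1a may be shared with them.

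Zbp1, a nucleic acid sensor that can start necroptosis, rose by 1.08 (SE 0.24, edgeR adjusted p = 0.0129), and all 16 rich tumours were above the poor median. Ifi27l2a, an interferon-induced gene, had 4.65, 7.40 and 36.1 CPM as lowest, median and highest value in rich and 0.652, 3.28 and 12.1 in poor tumours, with a log2 fold change of 1.40 (SE 0.30, adjusted p = 0.012). Slfn4, a Schlafen gene of myeloid cells, rose by 1.23 (SE 0.32, adjusted p = 0.0413), with an estimate of 0.02 (SE 0.56) within the carbon-ion controls. Its reads may be shared with other Schlafen copies. Isg15, a ubiquitin-like interferon product, differed by 0.92 (SE 0.26) and did not pass (edgeR adjusted p = 0.0618). The Isg15 log2 fold change passed with DESeq2 (adjusted p = 0.0144), with the CD3 genes as the score, in M-titled libraries and in 3 of 32 fits that left out 1 library. Photon control 3 stood apart on the type I interferon list, with 186 summed CPM against 70.9 to 105 in the other 7 of its group. Oas2, Oas3, Oas1a, Zbp1 and Ifi27l2a passed in all 32 fits that left out 1 library, but none of the 5 passed with the adipocyte level as a covariate or without the 4 rich libraries that stood apart on any list. The Oas2 log2 fold change was then 1.18 (edgeR adjusted p = 0.0742) and 0.94 (0.124). Slfn4 passed in 14 of the 32 fits, with its largest adjusted p of 0.0766 without photon-irradiated library 1.

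Promoters were searched for the letters that interferon-responsive factors are known to bind, because the genes above moved together. The windows run from 250 bases before to 50 bases after the first RefSeq start of each gene (GRCm38.p6), and a window was found for 260 of the 328 higher and 52 of the 65 lower genes. The core of the interferon-stimulated response element, GAAA, any 2 bases and GAAA again on either strand, occurred in 25 of the 260 (9.62%), in 3.07% of the 12883 windows of tested genes, in 3.49% of all 27025 windows and in 1 of the 52 lower genes. The composite element of PU.1 and interferon regulatory factors, GGAA, any 2 bases and GAAA on either strand, occurred in 20 of the 260 (7.69%), in 2.52% of tested and 2.79% of all windows, and in 2 of the 52. The gamma-activated site core TTCNNNGAA, which reads alike on both strands, occurred in 29 of the 260 (11.2%), in 7.11% of tested and 8.47% of all windows, and in 2 of the 52. The first and second elements differ in 1 letter, so both cannot match at the same position on a strand, but shifted matches can overlap. These shares describe letters only, and a match says nothing of binding. The 5 windows below were chosen after values were seen, to show each element in a gene described here; they are written 5′ to 3′ on the gene's strand, with matches to the interferon-stimulated or the composite element on either strand in capitals. Their positions are chr5:120777610-120777909 (minus) for Oas3, chr5:120907476-120907775 (minus) for Oas1a, chr3:142496684-142496983 (plus) for Gbp5, chr7:101857141-101857440 (minus) for Folr2 and chr1:94052504-94052803 (minus) for Pdcd1.
Oas3: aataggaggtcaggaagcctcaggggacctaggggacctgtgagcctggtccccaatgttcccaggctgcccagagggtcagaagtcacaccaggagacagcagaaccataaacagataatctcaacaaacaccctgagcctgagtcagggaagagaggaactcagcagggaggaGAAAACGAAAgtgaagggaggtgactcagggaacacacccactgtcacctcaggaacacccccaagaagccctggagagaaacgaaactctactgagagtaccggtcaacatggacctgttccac
Oas1a: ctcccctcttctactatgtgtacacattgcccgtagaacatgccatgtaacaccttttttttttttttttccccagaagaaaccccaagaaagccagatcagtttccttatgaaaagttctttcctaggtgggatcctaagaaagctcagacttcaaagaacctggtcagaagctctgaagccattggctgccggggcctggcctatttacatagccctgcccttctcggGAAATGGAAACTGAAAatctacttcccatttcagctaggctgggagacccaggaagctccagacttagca
Gbp5: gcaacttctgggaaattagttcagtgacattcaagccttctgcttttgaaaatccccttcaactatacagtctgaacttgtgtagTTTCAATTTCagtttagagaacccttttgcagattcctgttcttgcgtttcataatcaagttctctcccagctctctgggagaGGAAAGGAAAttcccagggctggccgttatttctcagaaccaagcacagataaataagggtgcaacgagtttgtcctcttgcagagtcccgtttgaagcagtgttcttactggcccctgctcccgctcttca
Folr2: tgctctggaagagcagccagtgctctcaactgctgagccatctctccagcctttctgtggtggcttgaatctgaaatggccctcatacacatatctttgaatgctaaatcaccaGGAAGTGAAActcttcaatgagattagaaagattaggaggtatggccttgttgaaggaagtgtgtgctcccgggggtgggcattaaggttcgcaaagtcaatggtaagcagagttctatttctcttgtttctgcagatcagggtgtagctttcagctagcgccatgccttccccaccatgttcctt
Pdcd1: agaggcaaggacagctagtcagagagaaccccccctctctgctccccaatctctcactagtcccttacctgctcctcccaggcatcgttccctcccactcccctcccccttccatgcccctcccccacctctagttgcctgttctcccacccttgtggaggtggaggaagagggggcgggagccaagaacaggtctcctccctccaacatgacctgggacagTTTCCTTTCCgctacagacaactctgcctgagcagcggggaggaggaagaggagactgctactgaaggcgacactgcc
The interferon element of Oas3 begins 75 bases before the start. In Oas1a, 2 overlapping matches form 1 run just before the start. Gbp5 holds 1 match to each element, and Folr2 and Pdcd1 hold 1 match each to the composite element.

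Of 16 macrophage and monocyte genes tested, 7 were called higher against 1.6% over all genes tested (C1qa, C1qb, C1qc, Cd68, Ly6c2, Lyz2 and Trem2), 15 were above 0 in log2 fold change, and the median was 0.40. Lyz2, the lysozyme of macrophages and neutrophils, ran from 269 through 517 to 788 CPM in rich and from 170 through 371 to 595 in poor tumours. The ranges overlapped widely, 15 of 16 rich tumours were above the poor median, and the log2 fold change was 0.50 (SE 0.09, edgeR adjusted p = 0.0029). C1qa, a complement component made by tissue macrophages, rose by 0.40 (SE 0.08, adjusted p = 0.00902). Ly6c2, a marker of inflammatory monocytes, ran from 0.533 through 1.47 to 26.1 CPM in rich and from 0.105 through 0.352 to 1.86 in poor tumours. It had the largest log2 fold change of this list, 2.59 (SE 0.48, adjusted p = 0.005), with carbon-irradiated library 8 at 26.1 CPM and the next tumour at 7.24. All 3 passed in each fit that left out 1 library, but the C1qa log2 fold change had an adjusted p of 0.0888 without the 4 rich libraries that stood apart on any list; without carbon-irradiated library 8 Ly6c2 had an adjusted p of 0.0151.

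Other macrophage genes did not pass. Adgre1 (F4/80) differed by 0.33 (SE 0.11, edgeR adjusted p = 0.134) and Csf1r, the receptor of macrophage colony-stimulating factor, by 0.23 (SE 0.09, adjusted p = 0.218), though both passed in M-titled libraries. The list's summed CPM did not separate the tumours: it ran from 5311 through 6347 to 10230 in rich and from 3575 through 6674 to 9616 in poor tumours. Folr2, a folate receptor of resident macrophages, ran from 3.54 through 6.07 to 19.7 CPM in rich and from 0.848 through 3.03 to 10.7 in poor tumours. All 16 rich tumours were above the poor median, and the log2 fold change was 1.12 (SE 0.26, adjusted p = 0.0171; 0.0588 without carbon-irradiated library 8). Hp, the plasma haemoglobin scavenger haptoglobin, had the largest log2 fold change among the 12 highest named genes with a mean log2 CPM of 1 or more, 1.99 (SE 0.51, adjusted p = 0.0349). It ran from 3.62 through 14.4 to 251 CPM in rich and from 2.15 through 4.64 to 29.2 in poor tumours, and it passed in 18 of 32 fits that left out 1 library (0.139 without carbon-irradiated library 8). Rarres2, the chemoattractant chemerin, rose by 1.08 (SE 0.29, adjusted p = 0.0429) and passed in 11 of those fits (0.109 without the same library). Fat cells are a known source of both Hp and Rarres2, and adipocyte genes are described further on. With the adipocyte level as a covariate, the Hp log2 fold change was 0.39 (edgeR adjusted p = 0.683) and the Rarres2 log2 fold change 0.48 (adjusted p = 0.469). That covariate was added after seeing the data, and whether fat tissue accounts for either difference was not tested.

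Some chemokine genes rose and others did not pass. Ccl9, a macrophage-made ligand of CCR1, ran from 20.6 through 51 to 131 CPM in rich and from 7.5 through 20.5 to 49.3 in poor tumours, with all 16 rich tumours above the poor median and a log2 fold change of 1.10 (SE 0.19, edgeR adjusted p = 0.00353). Of 14 T-cell-attracting chemokines and receptors, 3 were called and 13 were above 0 with a median of 0.52, against 1.6% called higher and 47.7% above 0 over all genes tested. Ccl17 rose by 1.01 (SE 0.22, adjusted p = 0.0114) and Ccl22 by 0.81 (SE 0.18, adjusted p = 0.0158); both are ligands of CCR4. Ccr2, the receptor that brings monocytes into tissue, rose by 0.73 (SE 0.16, adjusted p = 0.012), from a median of 21.8 to 37.1 CPM. The interferon-induced ligands of CXCR3 did not pass: Cxcl9 differed by 0.67 (SE 0.38, adjusted p = 0.464) and Cxcl10 by 0.93 (SE 0.27, adjusted p = 0.0703). Ccl5 differed by 0.62 (SE 0.18, adjusted p = 0.0737) and Cxcr6, a chemokine receptor of tissue T cells, by 0.23 (SE 0.16, adjusted p = 0.585). The Cxcl10 log2 fold change passed with DESeq2 (adjusted p = 0.02), with the CD3 genes as the score, without Cd3d in it and in 3 of 32 fits that left out 1 library. The Ccl5 log2 fold change passed with DESeq2 (0.0271), with the CD3 genes as the score (edgeR, 0.00234), in 4 other settings and in 4 of those fits.

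Dendritic-cell genes had 3 of 14 members called (1.6% of all genes tested were called higher) and 13 above 0, with a median of 0.36. They were Cd209a, a lectin of monocyte-derived dendritic cells (1.37, SE 0.37, edgeR adjusted p = 0.0442), Bst2 (0.69, SE 0.17, adjusted p = 0.0307) and Itgax, which encodes CD11c (0.29, SE 0.08, adjusted p = 0.0422). Bst2 is also induced by interferon. All 10 MHC class II genes were positive with a median of 0.26, and the 3 called encode the peptide-loading chaperone H2-DM: H2-DMa (0.32, SE 0.07, adjusted p = 0.0158), H2-DMb1 (0.46, SE 0.10, adjusted p = 0.00967) and H2-DMb2 (0.52, SE 0.12, adjusted p = 0.0234). The class II activator Ciita differed by 0.25 (SE 0.11, adjusted p = 0.267; it passed with the CD3 genes as the score and without Lck) and the class II chain H2-Aa by 0.22 (SE 0.09, adjusted p = 0.267). Of the 10 neutrophil genes tested, Trem1 rose (0.49, SE 0.12, adjusted p = 0.0272). Leaving out 1 library left between 0 and 4 of the dendritic-cell genes called, with Cd209a at 0.148 without carbon-irradiated library 8 and Itgax at 0.0975 without photon-irradiated library 1. Trem1 had 0.0664 and H2-DMb2 0.053 without carbon-irradiated library 8, and Bst2 had 0.0663 without photon-irradiated library 1.

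T-cell genes outside the score were a check of the names rich and poor. Of 22 T-cell receptor and signalling genes, 18 were above 0 in log2 fold change and the median was 0.48, but 2 passed the test, Grap2 and Lcp2. Over all genes tested, 47.7% were above 0 and 1.6% were called higher. Both encode adaptors of T-cell receptor signalling, and Lcp2 (SLP-76) is also used by myeloid cells and platelets. Grap2 rose by 0.59 (SE 0.15, edgeR adjusted p = 0.0322; 0.0711 without carbon-irradiated library 8) and Lcp2 by 0.50 (SE 0.13, adjusted p = 0.0443; 0.0896 without photon control 6). The receptor chain Cd247 ran from 0.450 through 0.717 to 1.17 CPM in rich and from 0.181 through 0.513 to 0.978 in poor tumours; it differed by 0.56 (SE 0.19, adjusted p = 0.157). Trac, the constant region of the receptor's alpha chain, differed by 0.51 (SE 0.16, adjusted p = 0.111), with 15 of 16 rich tumours above the poor median. Cd247 passed with the continuous score and Trac with DESeq2. Trat1, Sit1, Cd96 and Cd40lg of the same list were too low to test. They had 93, 50, 136 and 16 counts summed over rich and 32, 19, 81 and 15 over poor libraries. At levels near 1 CPM the spread between tumours is wide, and a miss of the threshold does not show that these genes were equal.

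Genes of CD4 helper and regulatory T cells had 2 of 9 members called higher (1.6% over all genes tested) and a median of 0.72. Il2ra, the high-affinity interleukin-2 receptor chain kept by regulatory T cells, ran from 1.02 through 2.43 to 6.53 CPM in rich and from 0.263 through 1.55 to 2.40 in poor tumours and rose by 0.90 (SE 0.21, edgeR adjusted p = 0.0186). Ccr8, a chemokine receptor of tumour regulatory T cells, rose by 1.32 (SE 0.35, adjusted p = 0.0404) from very low levels, with medians of 0.117 CPM in poor and 0.278 in rich tumours. The regulatory factor Foxp3 ran from 1 through 2.12 to 5.08 CPM in rich and from 0.522 through 1.48 to 2.74 in poor tumours; it differed by 0.72 (SE 0.22) and did not pass (adjusted p = 0.0926). The costimulatory receptor Icos differed by 1.01 (SE 0.29, adjusted p = 0.0591) and Cd4 by 0.36 (SE 0.17, adjusted p = 0.328). In other settings the Foxp3 log2 fold change passed with DESeq2 (adjusted p = 0.0326), with the CD3 genes as the score (edgeR, 0.0134), without Lck in the score, with the continuous score and in 2 of 32 fits that left out 1 library. The Icos log2 fold change passed with DESeq2 (0.0158), without Cd3d in the score, with the continuous score, with the library total as a covariate and in 6 of those fits. Of 8 naive and memory genes, Il7r, the interleukin-7 receptor, rose (0.78, SE 0.20, adjusted p = 0.0321). With the adipocyte level as a covariate the Il2ra log2 fold change had an adjusted p of 0.0815. Il2ra passed in all 32 fits that left out 1 library, Il7r in 22 (0.0642 without photon control 6) and Ccr8 in 16 (0.0818 without photon control 3).

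The inhibitory receptors Ctla4 and Pdcd1 were the 2 of 10 in their list that rose (1.6% over all genes tested). Ctla4, high on regulatory T cells, ran from 0.355 through 0.991 to 2.99 CPM in rich and from 0.0907 through 0.502 to 1.38 in poor tumours. The 4 rich photon controls and 1 tumour each of both carbon-ion groups stood highest, and the log2 fold change was 1.14 (SE 0.28, edgeR adjusted p = 0.0271; 0.0565 without carbon-irradiated library 1). Pdcd1, which encodes PD-1, had 0.636, 1.17 and 2.38 CPM as lowest, median and highest value in rich and 0.196, 0.598 and 1.70 in poor tumours. It rose by 0.74 (SE 0.20, adjusted p = 0.0458; 0.0983 without photon control 3), and passed in 8 of 32 fits that left out 1 library. Neither passed with the adipocyte level as a covariate or without the 4 rich libraries that stood apart on any list: the Ctla4 log2 fold change had adjusted p-values of 0.0804 and 0.0685, and the Pdcd1 log2 fold change of 0.114 and 0.202. Both genes stayed higher in rich tumours in those fits, and the lost calls alone do not show how far their fold changes moved. The PD-1 ligand gene Cd274 differed by 0.23 (SE 0.14, adjusted p = 0.52).

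No gene of the CD8 or cytotoxic lists passed the reported test. Over all genes tested, 1.6% were called higher, 0.318% were called lower and 47.7% were above 0, so no call in lists this small is near those shares. Of the 3 CD8-lineage genes tested, 2 were above 0 in log2 fold change and the median was 0.21. They were Runx3, a factor of CD8 lineage choice (0.21, SE 0.11, edgeR adjusted p = 0.424), and Eomes, a factor of effector and memory cells (0.27, SE 0.32, adjusted p = 0.815). The list's summed CPM differed by -0.14, 0.29, 0.51 and 0.07 on the log2 scale in carbon-ion controls, carbon-irradiated tumours, photon controls and photon-irradiated tumours. Cd8a was low throughout, from 0.0781 through 0.210 to 0.883 CPM in rich and from 0.111 through 0.322 to 0.913 in poor tumours, and differed by -0.28 (SE 0.25, edgeR adjusted p = 0.718). Cd8b1 was not tested, with 49 counts summed over rich and 33 over poor libraries. Of 10 cytotoxic effectors tested 0 passed, the median was -0.16, and 4 were positive. Gzmk, Ifng and Fasl were too low to test, with 4, 4 and 87 counts summed over rich and 6, 10 and 44 over poor libraries. Prf1, the pore protein perforin, ran from 0.226 through 0.847 to 3.42 CPM in rich and from 0.295 through 1.91 to 4.37 in poor tumours; only 1 rich tumour was above the poor median. Its difference was -1.14 (SE 0.34) and did not pass (edgeR adjusted p = 0.0774). The Prf1 log2 fold change passed as lower with DESeq2 (-1.15, adjusted p = 0.0172), in M-titled libraries (-1.30, edgeR adjusted p = 0.0467) and in 3 of 32 fits that left out 1 library, with -1.37 (adjusted p = 0.0101) without carbon-irradiated library 5. Granzyme F, Gzmf, named after its values were seen, had medians of 0.415 CPM in rich and 5.02 in poor tumours, again with 1 rich tumour above the poor median, and differed by -2.12 (SE 0.75, edgeR adjusted p = 0.163). The Gzmf log2 fold change passed as lower with DESeq2 (-2.25, adjusted p = 0.0332), with the CD3 genes as the score (-2.41, edgeR adjusted p = 0.0456) and without carbon-irradiated library 5 (-2.69, 0.0179). Its reads may be shared with the neighbouring granzyme copies. Gzmb differed by -0.35 (SE 0.30, adjusted p = 0.689), Gzma by -0.13 (SE 0.38, adjusted p = 0.944) and Nkg7 by 0.52 (SE 0.33, adjusted p = 0.544). The Nkg7 log2 fold change passed as higher with the score as a continuous covariate (2.64 per unit of score, adjusted p = 0.0165).

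**Figure D3:**
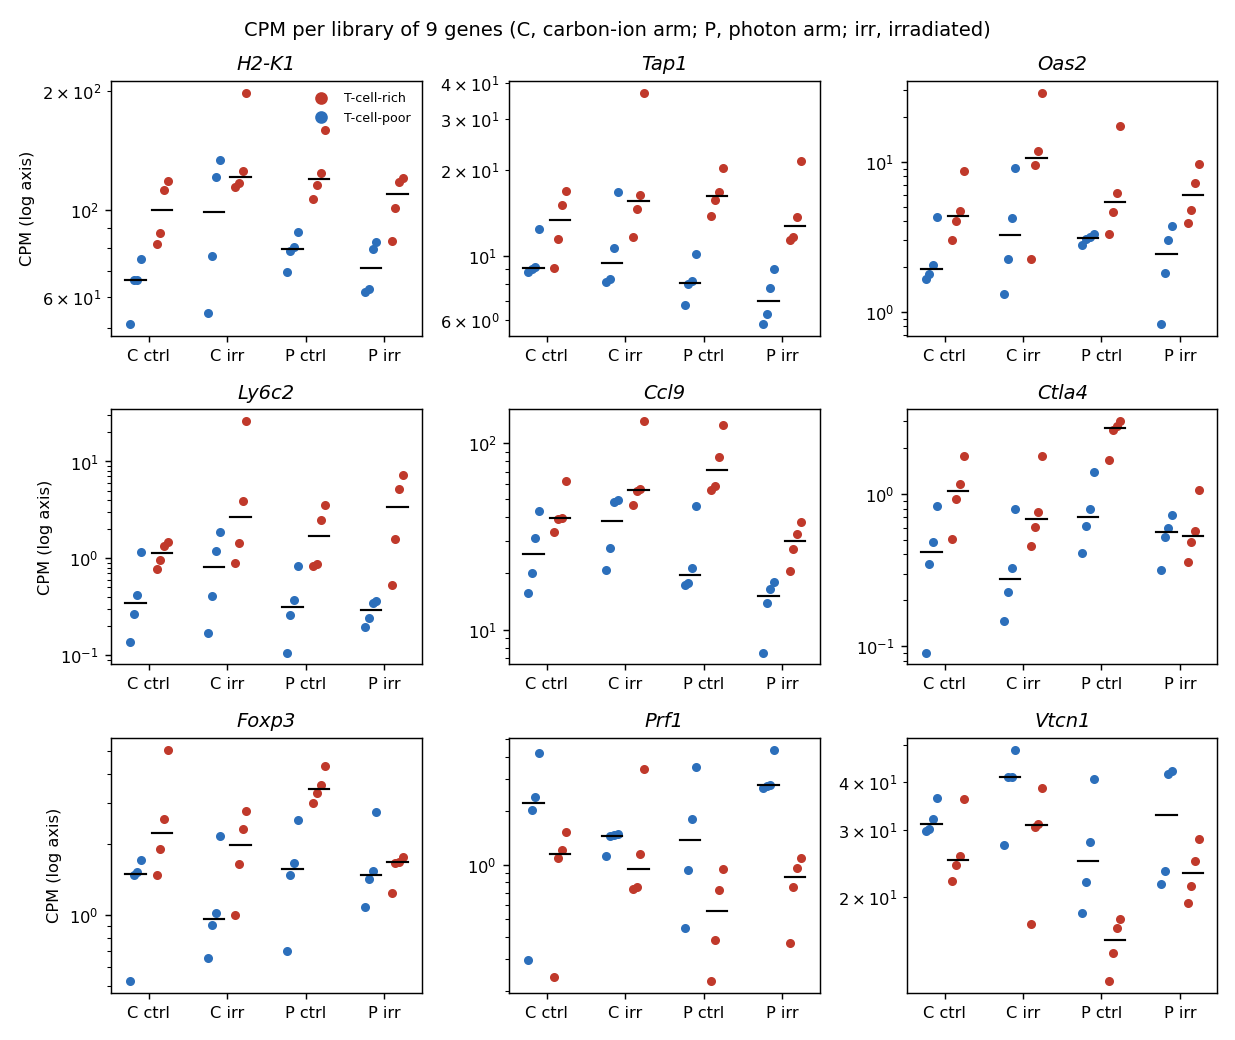
CPM (vertical axes, log scale) of 9 genes in each of the 32 tumours by treatment group, with a black bar at the median of the 4 rich (red) and 4 poor (blue) tumours. H2-K1, Tap1, Oas2 and Ly6c2 have higher medians in rich tumours of all 4 groups, Ctla4 overlaps in photon-irradiated tumours (log2 fold change 0.22), and Prf1 has 1 rich tumour above the poor median.

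NK-cell genes had 2 of 7 members called and 6 above 0, with a median of 0.55, against 1.6% called higher and 47.7% above 0 over all genes tested. Klrk1, the activating receptor NKG2D of NK and CD8 T cells, rose by 0.83 (SE 0.23, edgeR adjusted p = 0.0492; 0.107 without carbon-irradiated library 8), with all 16 rich tumours above the poor median. Tyrobp, the adaptor DAP12 that NK cells share with macrophages, rose by 0.47 (SE 0.10, adjusted p = 0.0128). No B-cell gene (9 tested), plasma-cell gene (6) or gene of lymph node stroma (7) passed, with medians of 0.13, -0.06 and 0.41. The B-cell marker Ms4a1 was too low to test, with 33 counts summed over rich and 49 over poor libraries. Ccl21a, a chemokine of lymphoid tissue, differed by 0.30 (SE 0.54, adjusted p = 0.903).

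Genes lower in T-cell-rich tumours changed by less than those that were higher. Vtcn1 encodes B7-H4, an inhibitory B7 protein of epithelial tumours. It ran from 12 through 23.2 to 38.6 CPM in rich and from 18.2 through 31.1 to 48.7 in poor tumours, and fell by 0.50 on the log2 scale (SE 0.13, edgeR adjusted p = 0.0306; 0.062 without photon-irradiated library 1). 3 rich photon controls were the lowest, and 3 of 16 rich tumours were above the poor median. Galr3, a galanin receptor, fell by 0.53 (SE 0.14, adjusted p = 0.0454), and Il17re, the receptor chain for interleukin-17C on epithelium, by 0.46 (SE 0.13, adjusted p = 0.0466). Wnk4, a kinase that regulates salt transport, fell by 0.43 (SE 0.10, adjusted p = 0.0171). Slc4a4, the sodium bicarbonate cotransporter of pancreatic duct, ran from 172 through 283 to 537 CPM in rich and from 304 through 366 to 491 in poor tumours and fell by 0.37 (SE 0.09, adjusted p = 0.0271). Col4a5, a basement membrane collagen, fell by 0.36 (SE 0.09, adjusted p = 0.0322), and Pard6b, a subunit of the epithelial polarity complex, by 0.32 (SE 0.08, adjusted p = 0.03).

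The other lower genes under the naming rule were Zfp964, F8, Lepr, Tmtc2 and Plekha6, with log2 fold changes from -0.41 to -0.33. Zfp964, a zinc finger gene, had the smallest adjusted p of the 12 (edgeR, 0.0115), with 1 of 16 rich tumours above the poor median. Lepr, the leptin receptor, fell by 0.38 (SE 0.10, adjusted p = 0.0458). Wnk4, Zfp964 and Tmtc2 passed in all 32 fits that left out 1 library, and of these Zfp964 alone also passed with the adipocyte level as a covariate. Of those fits, Galr3 passed in 10 (0.0926 without photon control 3), Lepr in 11 (0.0882 without carbon-ion control 1), F8 in 13 (0.09 without photon control 5) and Il17re in 14 (0.0916 without photon-irradiated library 1). Slc4a4 had 0.055 and Pard6b 0.0664 without carbon-irradiated library 8, and Col4a5 and Plekha6 each had 0.0679 without photon-irradiated library 1. Scaling moved the counts in both directions. With column totals and no further scaling, 387 genes were higher and 15 lower (96.3% higher against 83.5%), and the median of all genes was 0.03 in place of -0.01.

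Of 15 epithelial genes tested 0 passed, 12 were below 0 in log2 fold change and 3 above, and the median was -0.12. Over all genes tested, 1.6% were called higher, 0.318% were called lower and 47.7% were above 0. For lists of the sizes given here, 0 called is near those shares. Whether the 12 lower genes named above went with the epithelial share of the tissue was not tested. Epcam, the epithelial adhesion molecule, ran from 10.5 through 30.4 to 74.0 CPM in rich and from 13.5 through 32.8 to 91.4 in poor tumours, a difference of -0.26 (SE 0.24, edgeR adjusted p = 0.728), and Krt19 differed by -0.09 (SE 0.14, adjusted p = 0.874). Of 16 fibroblast and matrix genes 0 passed (median 0.16), and Col1a1, the main collagen of the stroma, differed by 0.11 (SE 0.15, adjusted p = 0.853). No gene passed among 14 endothelial (median 0.19), 7 lymphatic (0.27), 16 hypoxia (-0.33), 16 mitosis (0.26) and 16 DNA replication genes (0.23), although all 16 DNA replication genes were positive. Of 19 p53 targets, Aen, a DNA-damage nuclease, rose by 0.30 (SE 0.08, adjusted p = 0.0359; 0.0915 without carbon-irradiated library 8). Of 13 TGF-beta response genes, Tgfbi, a matrix protein also made by macrophages, rose by 0.61 (SE 0.11, adjusted p = 0.00353) and Ltbp2, a matrix protein of the latent TGF-beta binding family, by 0.71 (SE 0.19, adjusted p = 0.0413; 0.111 without carbon-irradiated library 8), while the list's median was 0.01.

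Adipocyte genes had the highest median of the 34 lists, 2.20, with 5 of 10 called higher against 1.6% over all genes tested (Adipoq, Cfd, Lep, Pck1 and Plin1). Cfd, the fat-cell protease adipsin, ran from 0 through 3.75 to 176 CPM in rich and from 0 through 0.515 to 9.31 in poor tumours. It rose by 3.52 (SE 0.86, edgeR adjusted p = 0.0255), and 10 of 16 rich tumours were above the poor median. Adipoq, the fat-cell hormone adiponectin, rose by 3.04 (SE 0.81, adjusted p = 0.0422), and the hormone leptin, Lep, by 3.65 (SE 0.89, adjusted p = 0.0246). Carbon-ion control 5, a rich tumour, had 499 summed CPM of the 10 genes against 24.3 to 73.7 in the other 7 of its group, and without it 0 adipocyte genes passed. The Cfd log2 fold change was then 2.60 (edgeR adjusted p = 0.134), the Adipoq log2 fold change 1.97 (0.187) and the Lep log2 fold change 2.51 (0.191). Adipoq passed in 12 of 32 fits that left out 1 library, and Cfd and Lep in 30 each. The summed level was 24.3 to 499 (median 50.7) in rich and 21.1 to 73.7 (median 34.4) in poor tumours. Rich tumours were higher by a mean of 0.99, 1.10 and 0.69 in log2 summed CPM in carbon-ion controls, photon controls and photon-irradiated tumours, and lower by that measure in carbon-irradiated tumours (-0.20).

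With the adipocyte level as a covariate, an alternative added after seeing the data, 92 genes passed in place of 393, 91 of them the same genes, and all 393 kept their sign. Of the type I interferon list 1 gene then passed (median 0.81), of the MHC class I list 2 (median 0.40), of the macrophage list 4 (median 0.36) and of the adipocyte list 0 (median 0.28). Fat tissue has resident T cells and macrophages, and its part in the other differences was not tested beyond this. Skeletal muscle, another tissue that a tumour piece can include, had 0 of 15 genes called (1.92% over all genes tested), 2 above 0 and a median of -0.37. The summed level of the muscle genes pointed the other way, with 15.5 to 4193 CPM (median 833) in rich and 23.4 to 9411 (median 362) in poor tumours. On the log2 scale it differed by 0.05, 1.12 and 1.19 in carbon-ion controls, carbon-irradiated tumours and photon controls and by -0.79 in photon-irradiated tumours. The list's median log2 fold change was also positive under other scores (0.56 without Cd2). With the muscle level as a covariate 347 genes passed. No gene passed among the 6 skin keratinocyte and 2 pancreatic acinar genes tested. The skin keratin gene Krt5 was not tested. It had 554 counts summed over rich and 12 over poor libraries, with 336 in 1 rich library.

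**Figure D4:**
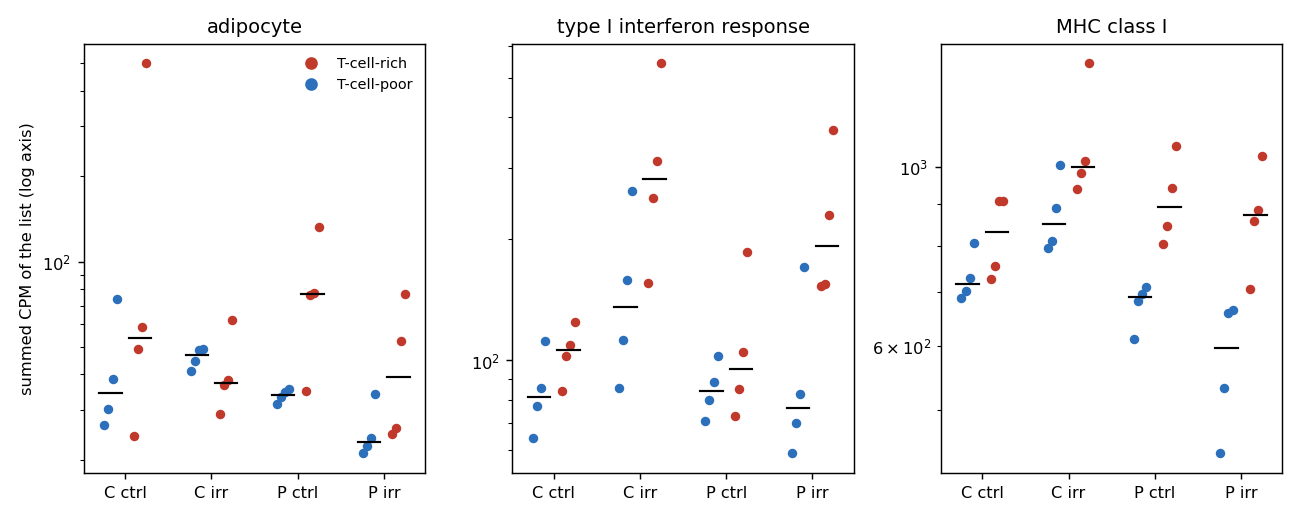
Summed CPM (vertical axes, log scale) of the adipocyte, type I interferon and MHC class I lists in each of the 32 tumours by treatment group, with a black bar at each median. Carbon-ion control 5 stands at 499 adipocyte CPM, and the medians of rich tumours are higher in all 4 groups for interferon and MHC class I but not for adipocyte genes in carbon-irradiated tumours.

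Whether the difference between rich and poor tumours depended on treatment was asked with a model holding 1 difference for each group. No gene passed for a difference among the 4 groups by edgeR's test (smallest adjusted p = 0.737; 1267 genes, 6.19%, at an unadjusted p under 0.05), and 1 passed by DESeq2, Chn1os3 (named because it alone passed). None passed for irradiated less control tumours by either tool (415 genes at an unadjusted p under 0.05 by edgeR and 483 by DESeq2). None passed for the carbon-ion less the photon arm by edgeR (smallest adjusted p = 0.145), although 3037 genes, 14.8%, had an unadjusted p under 0.05, and 18 passed by DESeq2. The genes with the smallest p in these contrasts were Chml and Mgp for any difference, Dusp23 and Ighm for irradiated less control, and Chml and Pwp1 for the arms. Chml, a Rab escort protein, differed by -0.27 and -0.36 in carbon-ion controls and carbon-irradiated tumours but by 0.35 and 0.27 in the photon groups, an arm difference of -0.62 (SE 0.11, edgeR adjusted p = 0.145). Ighm, the constant region of IgM, differed by 0.77 and 0.85 in the control groups and by -0.53 and 0.32 in the irradiated ones, with a difference of -0.92 (SE 0.25) that did not pass (edgeR adjusted p = 1).

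Within a single group of 4 against 4, calls were made in the photon controls alone at the reported settings, with 26 genes (0.127% of genes tested), of which 17 were higher (0.0831%) and 9 lower (0.044%). None passed by edgeR in carbon-ion controls (508 at an unadjusted p under 0.05; DESeq2 0), carbon-irradiated tumours (1915; DESeq2 2, Matk and Gm20507) or photon-irradiated tumours (1773; DESeq2 24). This does not show that the groups differ, since the tests of that difference are those above. In photon controls the inflammatory protease gene Casp1 had means of 5.53 CPM in rich and 2.03 in poor tumours (log2 fold change 1.45, SE 0.23, edgeR adjusted p = 0.0198), and the scavenger receptor Msr1 44.9 and 22.1 (1.03, SE 0.17, adjusted p = 0.0198). The monocyte chemokine Ccl2 (1.13), the leukocyte actin bundler Lcp1 (0.74) and Itgb2 (1.0) were also higher, and Ahnak2 was lower (-0.68). Leaving out photon control 2, 3, 5, 6 or 8 ended all 26 calls, leaving out photon control 7 raised them to 292, and leaving out carbon-irradiated library 5 gave 42 calls in that group.

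The 12 highest and 12 lowest named genes, Oas2 among them, had to share a sign in all 4 groups, so their agreement is no result. H2-K1 differed by 0.63 in carbon-ion controls, 0.53 in carbon-irradiated tumours, 0.68 in photon controls and 0.56 in photon-irradiated tumours. Oas2 differed by 1.07, 1.64, 1.34 and 1.44 in the same order. Other interferon genes were less even: Oas1a differed by 0.28, 1.10, 0.88 and 1.58, Isg15 by 0.07, 1.08, 0.72 and 1.76, and Bst2 by 0.01, 0.83, 0.55 and 1.35. The summed CPM of the type I interferon list differed by 0.32 and 0.31 on the log2 scale in the carbon-ion and photon controls and by 1.01 and 1.28 in the carbon-irradiated and photon-irradiated tumours. The difference between irradiated and control tumours was tested gene by gene only, and no gene passed. For the regulatory T-cell genes named here, the difference of rich less poor was lowest in photon-irradiated tumours: Ctla4 differed by 1.32, 1.26, 1.68 and 0.22, Il2ra by 0.88, 1.09, 1.35 and 0.27, and Foxp3 by 1.07, 0.71, 1.16 and -0.08. Photon-irradiated tumours also had the narrowest spread of scores, and no gene's difference among groups passed the test by edgeR. Prf1 differed by -1.12, 0.12, -1.56 and -1.99.

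**Figure D5:**
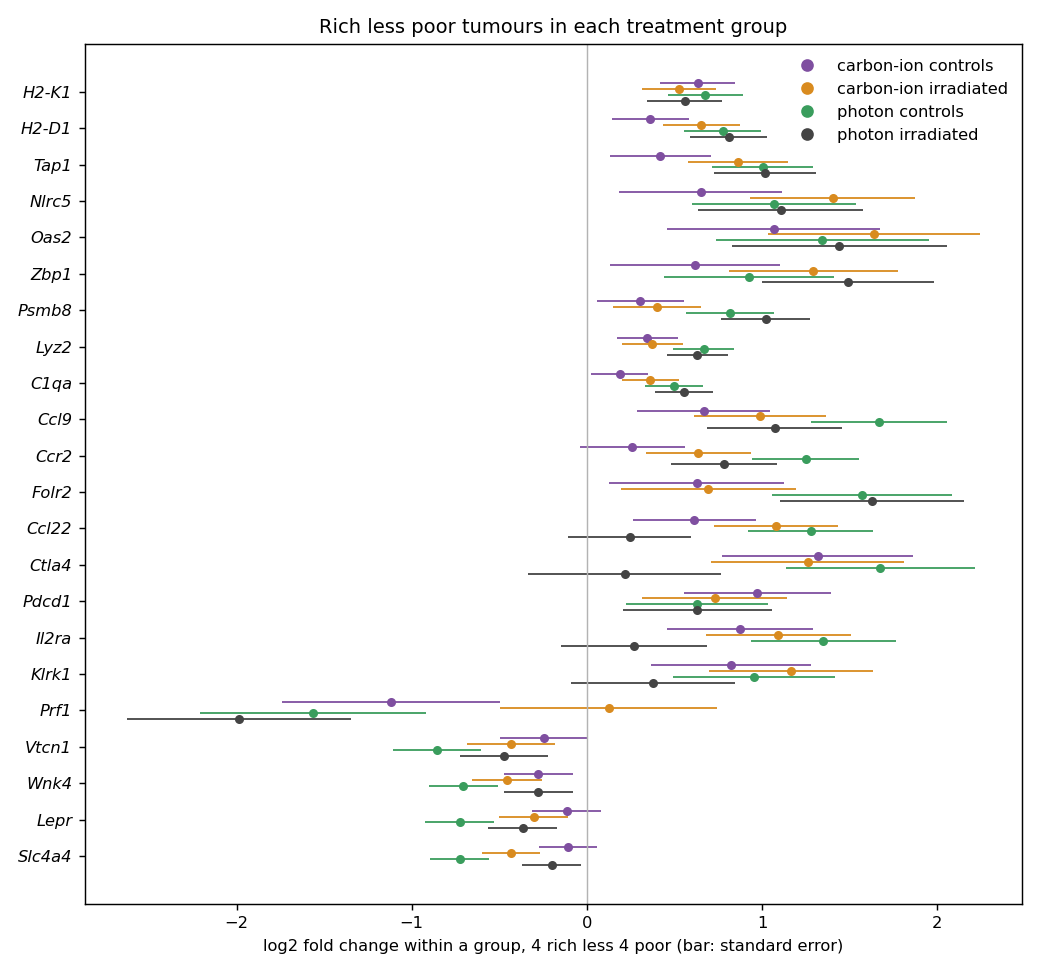
Log2 fold change (horizontal axis, 4 rich less 4 poor tumours) with its standard error for 22 genes in each treatment group. The MHC class I and interferon genes plotted lie right of 0 in all 4 groups, Ctla4 and Il2ra lie closest to 0 in photon-irradiated tumours (0.22 and 0.27), and Prf1 is left of 0 in all but the carbon-irradiated tumours.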

How the data were processed

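The deposited table gives estimated counts per gene symbol for 32 libraries. Per the labels' protocols, the authors extracted RNA from tumour tissue, kept samples above an RNA integrity limit and made stranded mRNA libraries with an Illumina kit. The submitters' processing notes name FastQC 0.12.0, Trimmomatic 0.32, RSEM 1.3.3 and mm10, with no order or settings; how strand was counted is not given in the sources used here. RSEM divides reads among similar transcripts, so near-identical genes are less certain. All columns matched a sample.

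The authors' deposited estimated counts were rounded, which changed a library total by at most 0.00403%. The design assumed whole counts. The score used column totals. Of 55103 genes, filterByExpr (edgeR 4.0.16, R 4.3.3; treatment groups, minimum count 10) kept 20474, and 20469 were tested after the 5 score genes were removed. One model with TMM scaling, the 4 groups as block and rich against poor was fitted with glmQLFit and glmQLFTest; p-values were Benjamini-Hochberg adjusted over all genes, with a threshold of 0.05. A second model held a difference for each group. Other CPM values are TMM-scaled. DESeq2 1.42.0, other scalings, filters and scores, and leaving out each library were alternatives. On simulated counts with 50 changed genes per size, the comparison of rich with poor recovered 64% at 1.5-fold and 90% at 2-fold, with 9 false calls among 20469 genes. The changed genes were drawn only from those above a limit on mean count, so these shares do not cover genes at low counts.

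The text names the 12 highest and 12 lowest log2 fold changes among called genes whose mean log2 CPM was 1 or more and whose sign was shared by all groups, up to 3 called genes of a list with the smallest p, a set of immune and tissue genes always reported, and for each contrast the 6 called genes with the smallest p, or 2 where none passed. Predicted genes and receptor segments were passed over in the ranked choices. The 34 lists hold 447 genes, of which 442 are in the table and 389 were tested. Some genes covered by the naming rule are not reported here. Members and lists were chosen with earlier results of these data known. Gene positions are from the GENCODE annotation of GRCm38 and promoters from RefSeq (GRCm38.p6).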

Additional observations from a re-analysis of the deposited data

Results flagged for a closer look

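Of 140 sets of 8 values (the log2 summed CPM of a list, or a library measure, within a treatment group), 9 had 1 library standing apart from the other 7 by Dixon's criterion; chance gives about 1 in 20. Of these, 6 were values of 4 T-cell-rich tumours. Carbon-ion control 5 had 499 summed CPM of adipocyte genes (24.3 to 73.7 in the others). Carbon-irradiated library 8 had 136 for gamma-delta and innate-like genes (61.8 to 86.5) and 1350 for MHC class I (794 to 1020). Photon control 3 had 186 for type I interferon genes (70.9 to 105) and 1040 for endothelial genes (521 to 663). Photon-irradiated library 5 had 888 for endothelial genes (422 to 556). The other 3 were values of 2 poor photon-irradiated tumours: library 6 had 564 for dendritic-cell genes (405 to 470), and library 3 had 3570 for macrophage and monocyte genes (5520 to 7480) and 2770 for epithelial genes (3730 to 4860). Without the 4 rich libraries among these, 70 genes passed in place of 393, among them 0 type I interferon genes (median log2 fold change 0.65), 2 MHC class I genes (0.37) and 2 macrophage genes (0.33). These 4 were dropped for high values of lists examined here, and the 2 poor libraries were kept. That choice favours fewer calls, so the fit is no test of the calls that were lost.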

How the results depend on the processing

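The number of calls depended on the setting. In place of 393 calls there were 711 with DESeq2, 170 with the 3 highest and 3 lowest tumours of each group, 771 with Cd3e, Cd3d and Cd3g as the score, 66 without Cd3e, 219 without Cd3d, 2 without Cd3g and 0 without Cd2 in it, 629 in M-titled libraries, 78 without the treatment block, and, added after seeing the data, 92 with the adipocyte level as a covariate and 70 without the rich libraries that stood apart. Leaving out 1 library gave 202 to 558. Other settings gave counts within 1.5 times of 393, though without Lck in the score 204 genes were higher and 225 lower, and with DESeq2 498 and 213. In every alternative, each of the 393 genes that was tested kept its sign, except Ltbp2 without Cd2; these genes were chosen on the reported sets and the alternatives reuse most of the libraries, so this is no independent check. The cause of these shifts was not tested, except that changed scores exchange tumours.

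The difference among groups gave 1 call by DESeq2, and the arms 18. Within groups, DESeq2 gave 2 calls in carbon-irradiated, 486 in photon control and 24 in photon-irradiated tumours; photon controls gave 16 with RLE scaling, 55 at a mean CPM of at least 1 and 13 from their own 8 libraries. Leaving out 1 library gave 0 to 1 calls for the arms, 0 to 42 in carbon-irradiated, 0 to 292 in photon control and 0 to 1 in photon-irradiated tumours.

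Sign changes were seen in 5 named genes. The Gzma log2 fold change (-0.13) was 1.01 with the score as a continuous covariate, 0.12 with the outer 3, 0.63 with the CD3 genes, 0.15 without Cd3e, 0.041 without Cd3d, 0.072 without Cd2 and 0.13 in M-titled libraries, and -0.33 to 0.10 without 1 library. The Ccl21a log2 fold change (0.30) was -0.52 with the continuous score, -0.045 with the CD3 genes and -0.11 without Cd2. The Epcam log2 fold change (-0.26) was 0.078 without Cd3e, 0.080 without Cd3d and 0.12 without Cd2. The Col1a1 log2 fold change (0.11) was -0.071 without Cd2, -0.031 with the adipocyte covariate and -0.13 without the rich libraries that stood apart. The Ltbp2 log2 fold change (0.71) was -0.012 without Cd2. No paired analysis was possible because the labels carry no replicate numbers. The score rests on 21 to 368 counts a library, and genes under about 1 CPM had wide errors.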
